A study of Mus musculus with 4 samples.

Results

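The MAP kinase phosphatases Dusp1, Dusp2, Dusp4, Dusp5, Dusp6, Dusp10 and Dusp16 and the RAS pathway inhibitors Spred1 and Spred2 were followed in RAW 264.7 cells given Lactobacillus bulgaricus. These 9 genes were taken by name, and every probe whose accession maps to them was used, which gave 12 of 39429 probes, and 9 of the 20971 genes named on the array. RAW 264.7 is a macrophage-like line from BALB/c mice, transformed by Abelson leukaemia virus, and L. bulgaricus is a lactic acid bacterium of yoghurt. Cells were left untreated or were kept with the bacteria for 1, 4 or 6 h at a multiplicity of infection of 10, and all groups share the same line and medium without antibiotic. Each group was 1 array, hybridised with RNA of 3 biological replicates, mixed in equal amounts, so that their own spread is not seen. The RNA of the group carried Cy5, and a common reference in Cy3, described by the labels as the mixed RNA of every group, was on each array.

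MAP kinases (ERK, JNK and p38) carry signals from Toll-like and growth factor receptors to the nucleus of macrophages, where they drive cytokine and immediate early genes. The MAP kinase phosphatases are dual-specificity enzymes that remove phosphate from both the threonine and the tyrosine that activate a MAP kinase, and several are themselves transcribed in answer to the kinases they switch off. SPRED proteins act further up, binding neurofibromin and holding back RAS and thereby RAF and ERK.

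Each group being a single hybridisation, no test could be made, and a difference is given with spot error or the scanner software's own error alone. Replicate spots on the arrays gave an SD of 0.13 for a log2 difference from untreated cells at each of the 3 times, and of 0.10 for a difference between any 2 of the 1, 4 and 6 h arrays. The SD of the pair compared is the one used below. A log2 ratio below is Cy5 over Cy3 after loess normalization within the array, a difference is that of 2 arrays, and a gene was counted at a size of 1 or more, a change of 2-fold or more in the ratio. Processed signals are the brightness after the scanner software's own background subtraction and dye normalization. Of 11 macrophage markers on the array, 10 to 11 were well above background in Cy5 on each array. Markers of other tissues were also there: of 16 intestinal epithelial markers 14 to 16 were above background in Cy5, with a summed processed signal of 7618, 16150, 11335 and 11572 in untreated cells and at 1, 4 and 6 h, and of 22866 to 29508 in the reference. The intestinal sum in the reference was above that of every group, although the labels describe the reference as the mixed RNA of the groups. Why it was higher was not tested. All 7 smooth muscle markers were above background, with Cy5 sums of 2006, 3384, 5984 and 4634 in the same order. Of 9 fibroblast and endothelial markers 6 were, with sums of 488.1 to 1039, and Lum, Col1a1 and Cdh5 were not on any array. Of 8 exocrine gland markers 4 were, with sums of 509.7, 1590, 643.8 and 2943 in that order, and Prss1, Amy2a5, Pnlip and Cpa1 were not. Of 6 lymphocyte markers 2 to 3 were, with sums of 142.9 to 232.8, and Ms4a1 and Cd79a were not. The intestinal sum was highest at 1 h, the time at which Dusp1, Dusp2, Dusp5 and Dusp16 were also highest in log2 ratio. The exocrine sum was highest at 6 h, as were Dusp4 and, in Cy5, Dusp1, and the smooth muscle sum was highest at 4 h. The part of these transcripts in the values below was not tested. In bulk RNA, fewer cells of a type cannot be told apart from less RNA per cell.

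In the log2 ratio Dusp2, Dusp5 and Dusp1 stood highest at 1 h, although Dusp1 was highest at 6 h in Cy5, and Dusp6 was below untreated cells at every time, at 1 h within 2 SD of spot error. Dusp4 was highest at 6 h, Spred1 was lowest at 6 h, and Dusp16 and Spred2 had the smallest peak difference over the 3 times, 0.26 and 0.22. None of these differences from untreated cells reached the size of 1 at any time: 0 of 8 measured genes were counted at 1 h, where 0.376% of all 10369 measured genes were, 0 of 8 at 4 h against 0.455% of 10339, and 0 of 8 at 6 h against 0.921% of 10311. The median of the 8 was 0.26 at 1 h, -0.11 at 4 h and -0.15 at 6 h, beside 0.06, 0.00 and -0.01 for all genes. Above 0 lay 6 of the 8 at 1 h (70.6% of all genes did), 2 at 4 h (50.9%) and 4 at 6 h (47.9%). The SD among the 8 was 0.35, 0.27 and 0.43 at 1, 4 and 6 h, and that among all genes 0.19, 0.24 and 0.30.

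**Figure D1:**
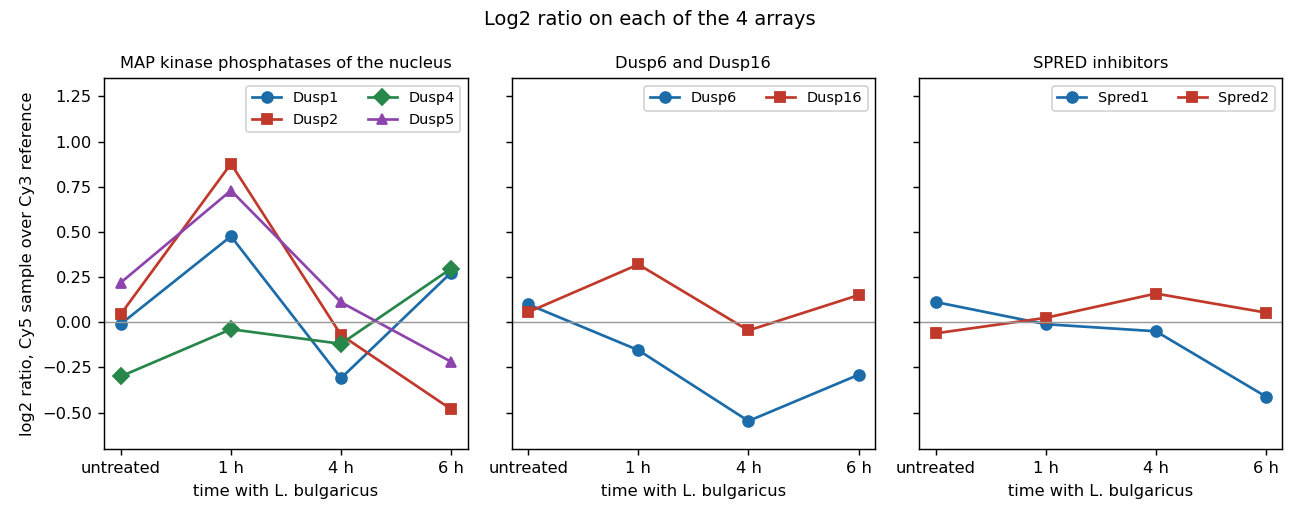
Log2 ratio of Cy5 (RAW 264.7) over Cy3 (common reference) for the 8 measured genes, in untreated cells and after 1, 4 and 6 h with bacteria (Spred1 as the mean of 2 probes); each point is 1 array, with no replicate. Dusp2, Dusp5 and Dusp1 peak at 1 h, at 0.88, 0.73 and 0.48, and Dusp6 is lowest at 4 h, at -0.55.

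Dusp2 encodes PAC-1, a phosphatase of the nucleus known from activated leukocytes. Its processed Cy5 signal was 4980 in untreated cells and 9364, 4733 and 4150 at 1, 4 and 6 h, while Cy3 stayed at 4832, 5083, 5031 and 5894. The 1 h array was thus the high one in the sample channel, and the reference did not share its peak. The log2 ratio was 0.05, 0.88, -0.07 and -0.48 in the same order. The difference from untreated cells was 0.83 at 1 h, a rank of 49 among 10369 genes from the top, then -0.12 at 4 h and -0.53 at 6 h, where 4.42% of genes were lower. In Cy5 alone, normalized across arrays, the differences were 0.80, -0.07 and -0.31. The scanner software's own error for such a difference was 0.30 at 1 h. Only the untreated and 4 h arrays, neighbours in the order of levels, differed by less than 2 SD of spot error.

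Dusp5 encodes a nuclear phosphatase specific to ERK. Its probe was dim: the spot median in Cy5 was 153 in untreated cells and 249.5, 107 and 75.5 at 1, 4 and 6 h, over a local background of 24.5 to 29. The processed Cy5 signal was 141.5, 410.3, 125.5 and 80.0 in the same order, and that of Cy3 was 106.8, 117.2, 135.7 and 118.9. The 1 h array was the highest in Cy5, and the 6 h array was the lowest. The log2 ratio was 0.22, 0.73, 0.11 and -0.22, which made the difference from untreated cells 0.51 at 1 h, -0.11 at 4 h and -0.44 at 6 h. In the processed signals the same differences were larger, 1.40 at 1 h, -0.52 at 4 h and -0.98 at 6 h, with a scanner error of 0.37, 0.34 and 0.36. The processed ratio at 1 h was thus 2.64 times that of untreated cells, past the size of 1 that the loess value did not reach. In Cy5 alone, normalized across arrays, the differences were 0.64, -0.07 and -0.31 at 1, 4 and 6 h. Without any normalization within arrays the 1 h difference in the ratio was -0.11, beside a median of -0.32 for all genes.

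Dusp1 encodes MKP-1, a nuclear phosphatase of p38 and JNK and a known brake on cytokine production in macrophages. Its processed Cy5 signal was 351.6, 755.7, 545.8 and 932.0 in untreated cells and at 1, 4 and 6 h. Its Cy3 signal, from a reference labelled as the same RNA, was 364.0, 515.4, 727.9 and 732.2, so both channels were lowest on the untreated array. The log2 ratio was -0.01, 0.48, -0.31 and 0.28, highest at 1 h and lowest at 4 h. The difference from untreated cells was 0.49 at 1 h, above 98.0% of genes, -0.30 at 4 h and 0.28 at 6 h. In Cy5 alone it was 0.91, 0.51 and 1.18, with the reference at 0.42, 0.81 and 0.89, so the sign at 4 h differs between the ratio and the sample channel. At 6 h, against 1 h, the ratio of Dusp1 was at -0.20, while Cy5 alone was at 0.27 and the ratio without normalization at 0.01. In Cy5 alone the 6 h difference passed the size of 1. The reference, labelled as the same RNA on every array, itself differed from the untreated array by 1 or more for some genes. These were 1.16%, 1.37% and 2.56% of all genes at 1, 4 and 6 h, with an SD of 0.29, 0.32 and 0.40. The reference is the denominator of every log2 ratio, so this spread bears on the ratios as well as on Cy5 alone. How far it cancels in the ratio was not tested.

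Dusp4 encodes MKP-2, a nuclear phosphatase close to Dusp1 in its targets. Its processed Cy5 signal was 7266, 9179, 8695 and 12420 in untreated cells and at 1, 4 and 6 h, and its Cy3 signal 8560, 9173, 9096 and 9888. The 6 h array was the brightest in Cy5, and the untreated array the dimmest. The difference in log2 ratio from untreated cells was 0.26, 0.18 and 0.60 at 1, 4 and 6 h, and in Cy5 alone 0.13, 0.14 and 0.64. At 6 h Dusp4 was the highest of the 8 and lay above 98.1% of all genes. The untreated, 4 h and 1 h arrays, in that order from the lowest, were not 2 SD of spot error apart from the next.

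The 250 bases before the annotated start of Dusp1, Dusp2 and Dusp5, the 3 genes with the highest log2 ratios at 1 h, are shown. Those of Dusp6, below untreated cells at that time but within 2 SD of spot error, are shown beside them. Dusp16 was also highest at 1 h, within 2 SD of spot error of its next level, and is not shown. Sequences are from RefSeq, build GRCm38.p6, 5′ to 3′ on the strand of the gene, and capitals mark the cAMP response element TGACGTCA or its core TGACG, the E-box CACGTG and the CArG box, the site of serum response factor.
Dusp1, chr17:26508473-26508722, minus strand: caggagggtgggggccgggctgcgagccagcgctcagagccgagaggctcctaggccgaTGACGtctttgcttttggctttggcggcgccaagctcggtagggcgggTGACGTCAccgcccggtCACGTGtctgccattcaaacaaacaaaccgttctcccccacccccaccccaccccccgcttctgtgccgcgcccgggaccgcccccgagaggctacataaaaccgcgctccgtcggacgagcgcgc
Dusp2, chr2:127335909-127336158, plus strand: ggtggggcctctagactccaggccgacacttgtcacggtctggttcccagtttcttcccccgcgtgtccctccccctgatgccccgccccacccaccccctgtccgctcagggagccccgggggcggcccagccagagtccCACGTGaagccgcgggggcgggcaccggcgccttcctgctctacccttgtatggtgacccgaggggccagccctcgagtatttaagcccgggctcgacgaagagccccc
Dusp5, chr19:53528895-53529144, plus strand: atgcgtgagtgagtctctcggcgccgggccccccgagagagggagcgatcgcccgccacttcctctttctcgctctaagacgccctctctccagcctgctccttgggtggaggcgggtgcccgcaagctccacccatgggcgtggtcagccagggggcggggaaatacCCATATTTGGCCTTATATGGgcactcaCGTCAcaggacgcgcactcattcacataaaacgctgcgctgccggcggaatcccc
Dusp6, chr10:99262981-99263230, plus strand: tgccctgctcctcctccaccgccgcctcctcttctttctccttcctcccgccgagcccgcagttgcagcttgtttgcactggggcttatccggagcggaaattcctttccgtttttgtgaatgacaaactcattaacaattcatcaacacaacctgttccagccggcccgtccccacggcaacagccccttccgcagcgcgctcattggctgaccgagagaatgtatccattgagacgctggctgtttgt

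Motifs were searched on both strands. The table of promoters held 8 of the 9 genes; Dusp4 is named only. The Dusp1 window held TGACGTCA at bases -143 to -136 from the start, a motif found in 1.62% of 27025 promoter windows of this length and in no other of the 8. It held a further TGACG at -191 to -187 and CACGTG at -126 to -121. The Dusp5 window held adjoining CArG boxes, CCATATTTGG at -82 to -73 and CCTTATATGG at -72 to -63, and the reverse complement of TGACG at -55 to -51. A CArG box was found in 1.40% of the windows and, among the 8, in Dusp5 alone. The Dusp2 window held CACGTG at -109 to -104, as 6.05% of windows did. TGACG, which lies within TGACGTCA, was in 17.9% of windows and in 4 of the 8: Dusp1, Dusp5, Dusp16 and Spred2. The Dusp6 window held none of the 4 motifs marked. The AP-1 site TGANTCA was in 6.87% of windows, the TATA box TATAAA in 13.0%, the ETS core CCGGAA in 12.2% and the NF-kB motif in 3.75%, and each was in 0 of the 8. These matches describe the letters in the windows and not binding.

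**Figure D2:**
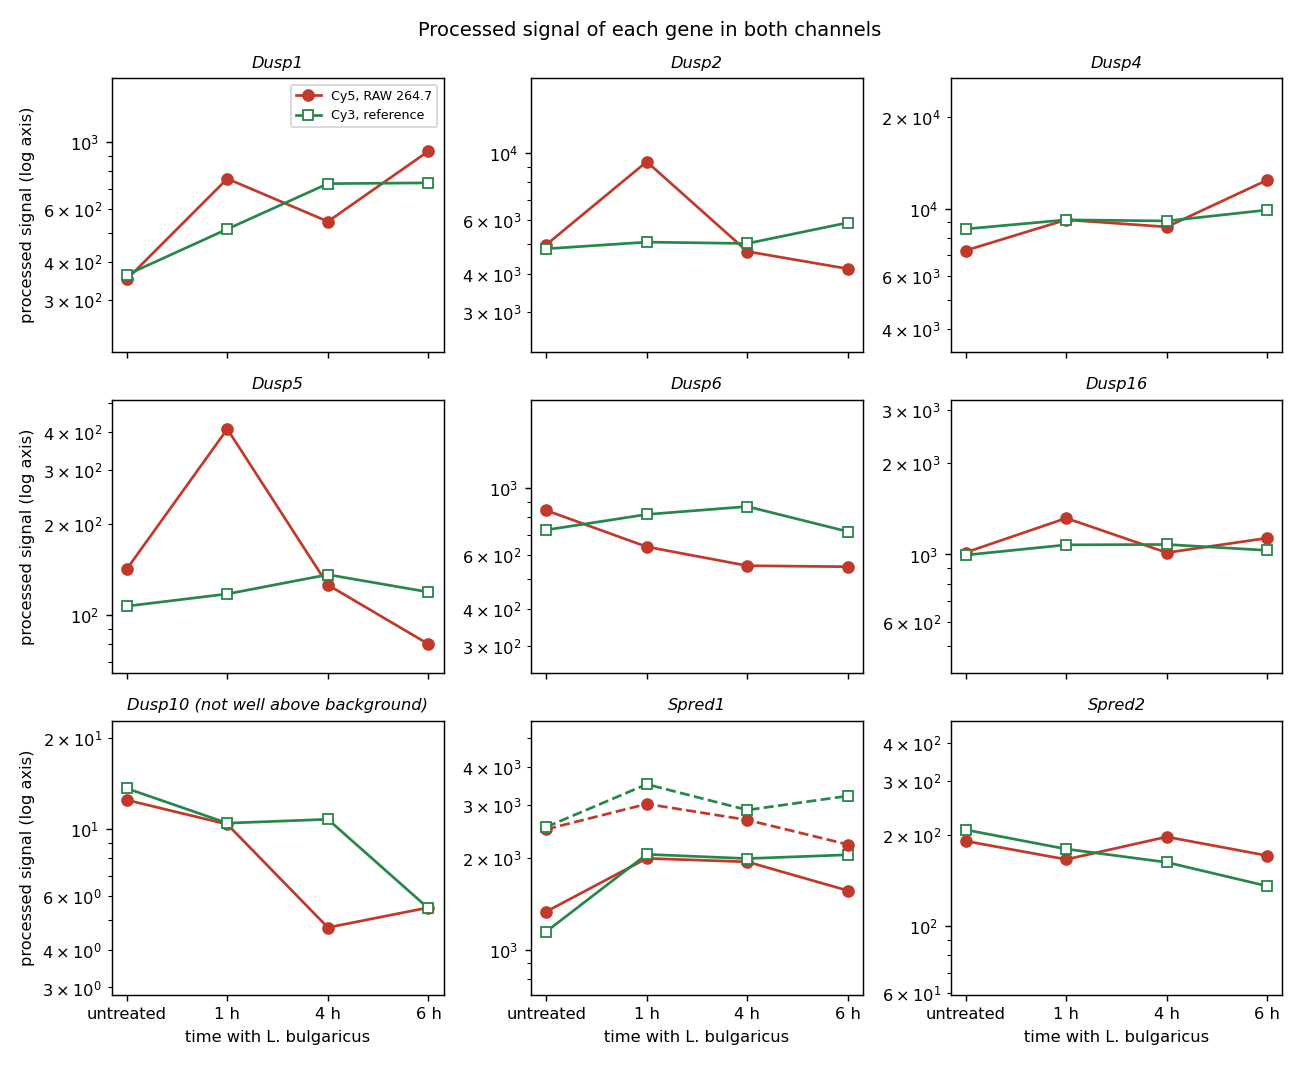
Processed signal (log axis, arbitrary units) of the 9 genes in Cy5 (RAW 264.7, filled circles) and Cy3 (common reference, open squares), in untreated cells and after 1, 4 and 6 h with bacteria; every panel spans at least 8-fold and each point is 1 spot on 1 array, Spred1 having 2 probes (solid and dashed). The Cy5 peaks of Dusp2 (9364) and Dusp5 (410.3) at 1 h have no match in Cy3, whereas Dusp1 and the dimmer Spred1 probe are lowest on the untreated array in both channels.

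Dusp6 encodes MKP-3, the cytoplasmic phosphatase of ERK and a widely used readout of ERK activity. Its processed Cy5 signal was 843.5, 639.5, 553.8 and 549.7 in untreated cells and at 1, 4 and 6 h, and that of Cy3 was 726.9, 817.9, 868.5 and 717.7. Cy5 was highest in untreated cells, and the 4 h and 6 h arrays were nearly alike. The log2 ratio was 0.10, -0.15, -0.55 and -0.29. The difference from untreated cells was -0.25 at 1 h, -0.65 at 4 h and -0.39 at 6 h, and at 4 h 1.03% of all genes were lower. In the processed signals the differences were -0.57, -0.86 and -0.60, and in Cy5 alone -0.24, -0.38 and -0.35. The 1 h array was less than 2 SD of spot error from the untreated array, and so were the 1 h and 6 h arrays from each other, while the 4 h array stood apart from the next. With each array centred on its median in place of loess, the 1 h difference of Dusp6 was 0.51, beside a median of 0.86 for all genes, so its place below the median held.

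Dusp16 and Dusp10 encode MKP-7 and MKP-5, phosphatases of JNK and p38. The bright probe of Dusp16 had a processed Cy5 signal of 1015, 1318, 1014 and 1133 in untreated cells and at 1, 4 and 6 h, and a Cy3 signal of 995.6, 1076, 1079 and 1032. Its 1 h array was the highest, and all neighbours in the order of levels were within 2 SD of spot error. The differences from untreated cells were 0.26, -0.10 and 0.09. The second Dusp16 probe, with Cy5 signals of 13.6 to 32.1, was not well above background in Cy3 on any array. Dusp10 was not well above background in either channel on any array, with a spot median in Cy5 of 37 to 48 over a background of 28.5 to 34, and has no difference here.

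Spred1 was measured by 2 of its 3 probes. The brighter probe had processed Cy5 signals of 2494, 3024, 2678 and 2222 in untreated cells and at 1, 4 and 6 h, and Cy3 signals of 2538, 3512, 2888 and 3214. The dimmer had Cy5 signals of 1334, 2000, 1948 and 1565 and Cy3 signals of 1146, 2062, 1997 and 2055. The processed Cy5 signal was highest at 1 h for both probes, and the reference was lowest on the untreated array for both. In the ratio both probes stood below untreated cells at every time, with a difference of -0.15, -0.10 and -0.46 for the brighter and of -0.10, -0.23 and -0.59 for the dimmer. Averaged, the differences were -0.12, -0.16 and -0.52, and only the 6 h level stood more than 2 SD of spot error from its neighbour. At 6 h 4.55% of all genes were lower. In Cy5 alone the average was 0.30, 0.29 and -0.02, with a reference that was higher by 0.42, 0.45 and 0.50. The 2 probes had opposite signs in Cy5 alone. The dimmer stood at 0.66, 0.60 and 0.24, and the brighter at -0.06, -0.02 and -0.29. The difference in the reference was 0.75, 0.83 and 0.83 in the dimmer probe and 0.10, 0.08 and 0.17 in the brighter, for which it was 0.47, 0.19 and 0.34 in processed signals. The third probe, matched to another transcript of the gene, had Cy5 signals of 4.57 to 20.4 and was not well above background in either channel.

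Spred2 had processed Cy5 signals of 190.4, 165.6, 196.6 and 170.4 in untreated cells and at 1, 4 and 6 h, and Cy3 signals of 207.4, 179.2, 162.0 and 135.2. The Cy5 values did not run in order of time, and Cy3 was lowest at 6 h. The differences were 0.09, 0.22 and 0.11 in log2 ratio, 0.01, 0.24 and 0.07 in Cy5 alone, and 0.01, 0.40 and 0.46 in processed signals. No neighbours in the order of its levels were 2 SD of spot error apart. Over the 8 genes, 10 of 24 gaps between neighbouring levels exceeded 2 SD of the spot error of their own pair of arrays. The scanner software's own error for a difference was larger than the spot SD, from 0.29 to 0.38 over the measured probes. The largest of the 10 gaps, Dusp2 at 1 h above untreated cells, was 0.83 with a scanner error of 0.30. The gaps of Dusp1, 0.20, 0.28 and 0.30, had scanner errors of 0.30, 0.29 and 0.30.

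The later arrays were also set against the 1 h array. At 6 h, against 1 h, Dusp2 fell by 1.36, rank 26 of 10496 genes from the lowest, and it was the 1 of 8 genes past the size of 1, where 0.867% of all genes were. The difference was -1.39 in processed signals and -1.11 in Cy5 alone. Dusp5 stood at -0.95 in the same comparison and at -1.33 with no offset added after background correction, and at -2.38 in processed signals, past the size of 1. At 4 h, against 1 h, the differences of Dusp2, Dusp1 and Dusp5 were -0.95, -0.79 and -0.62, with 0 of 8 genes past the size of 1 and 0.418% of all genes. In Cy5 alone they were -0.87, -0.39 and -0.71. In the ratio 7 of the 8 genes lay below 0, against 1 above, where 37.7% of all genes lay above 0; in Cy5 alone Dusp4 stood at 0.01 and 6 of the 8 lay below. Of the ratios nearest 0, Spred1 stood at -0.04 and was above 0 under 6 of 12 alternatives, and Spred2 stood at 0.13 and at -0.27 under median centring. At 6 h, against 4 h, with 0 of 8 genes counted beside 0.333% of all, Dusp1 stood at 0.58 and Dusp4 at 0.42, while Dusp2 stood at -0.41, Spred1 at -0.36 and Dusp5 at -0.33. These comparisons share the 1 h or 4 h array with those against untreated cells.

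Few of the other genes of the pathway passed the size of 1. Of the lists for the kinases and their inputs, none had such a gene at any time. That covers 8 of 9 MAP kinases, with medians of 0.13, 0.15 and 0.13 at 1, 4 and 6 h, 16 of 18 RAF, MAP2K and MAP3K kinases (0.06, 0.08 and 0.05) and 7 of 10 RAS proteins, adaptors and exchange factors (0.10, 0.12 and 0.03), each count being of genes measured at every time. Mapk3, which encodes ERK1, had the highest difference of a MAP kinase, 0.52 at 6 h, and Mapk13, a p38 kinase, stood at 0.33, 0.15 and 0.42. Map3k8, the kinase that links Toll-like receptors to ERK in macrophages, stood at -0.08, 0.33 and 0.29, and Map3k1, which acts on JNK, at 0.04, 0.37 and -0.01. The adaptor gene Grb2 stood at 0.13, 0.31 and 0.25 in the ratio but at -0.05, -0.06 and -0.19 in Cy5 alone, and the exchange factor gene Sos2 at 0.14, 0.27 and 0.05, or -0.05, 0.09 and -0.05 in Cy5 alone.

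Among the other phosphatases and inhibitors, too, 0 genes were past the size of 1. Dusp7, an ERK phosphatase of the cytoplasm, stood at -0.02, 0.20 and 0.23, and Dusp8 and Dusp9 were not measured against untreated cells. The atypical dual-specificity phosphatases had medians of 0.03, 0.09 and 0.02 over 7 of 10 genes, with Dusp28 at 0.37 and Dusp14 at 0.31 at 6 h. In Cy5 alone Dusp28 stood at 0.34 and Dusp14 at 0.10 at that time. The 4 Sprouty genes and Spred3 were not measured. In that list the RAS GTPase-activating proteins Dab2ip, at 0.43, 0.11 and 0.41, and Rasa3, at 0.25, -0.32 and 0.22, differed most from untreated cells. In Cy5 alone Rasa3 stood at 0.05, -0.22 and -0.13.

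Downstream, the spread was wider. Of 17 MAP kinase-activated kinases and transcription factors 14 were measured and 0 were past the size of 1, with medians of 0.07, -0.03 and -0.02. Jun, a factor activated by JNK, stood at 0.50, -0.09 and 0.67, or 0.13, -0.33 and 0.34 in Cy5 alone. Rps6ka1, a kinase activated by ERK, stood at -0.52, -0.63 and -0.70, although at 0.38, 0.40 and 0.30 in Cy5 alone. Of 16 transcripts known to answer ERK 14 were measured: 1 was past the size of 1 at 1 h, 1 at 4 h and 3 at 6 h, beside 0.376%, 0.455% and 0.921% of all genes, with medians of 0.15, -0.11 and -0.13. Ier2 was the 1 at 1 h (1.27, then 0.09 and -0.11), and Ier3 was higher at 4 and 6 h (0.73, 2.12 and 1.65, or 0.50, 1.72 and 0.95 in Cy5 alone). Fos, at -0.02, -0.23 and -1.26, and Plaur, at -0.45, -0.34 and -1.08, were the 2 lower genes at 6 h. In Cy5 alone Plaur stood at 0.66, 0.46 and 0.24. The list of transcripts known to answer ERK was, like the others, chosen with earlier results of these data known. Its counts beside those of all genes are therefore no test.

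**Figure D3:**
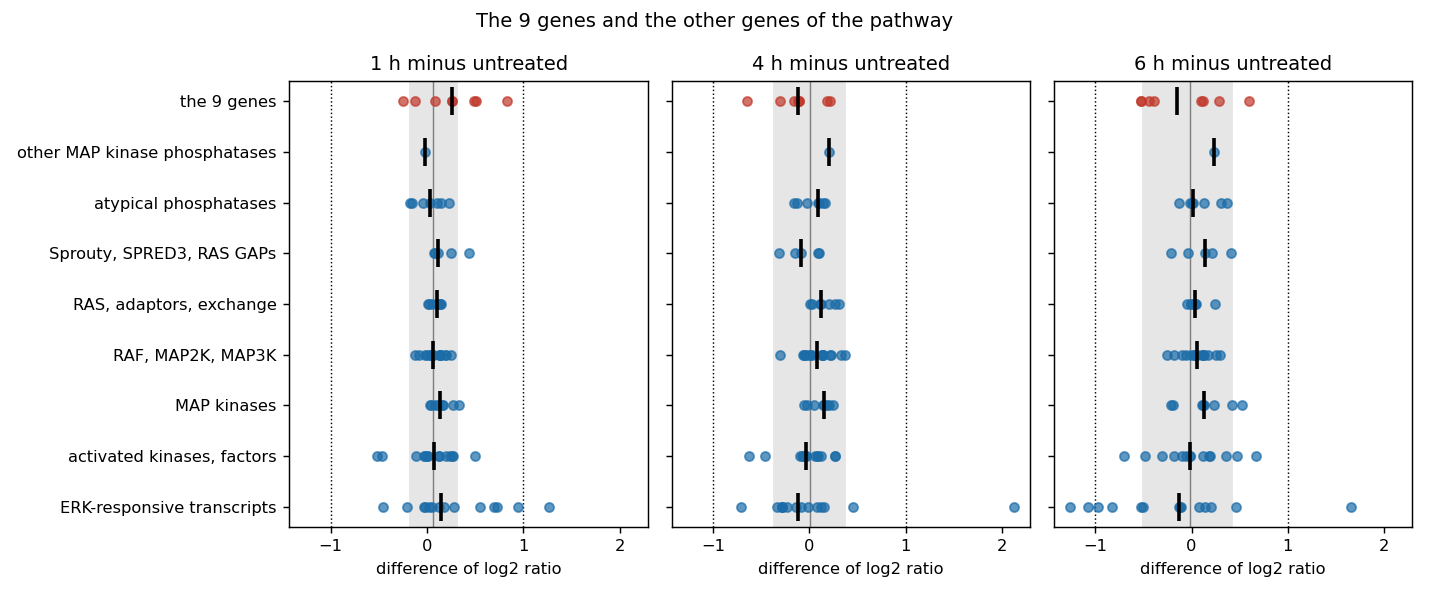
Difference of the log2 ratio from untreated cells at 1, 4 and 6 h for the measured members of each list (1 point a gene, red for the 9 genes described and blue for the other lists, black bars for list medians); grey spans the 5th to the 95th percentile of all measured genes, its centre line is their median, and dotted lines are at -1 and 1. No red point passes a dotted line, and the points that do are of the transcripts known to answer ERK. All lists were chosen with earlier results of these data known.

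The named genes whose 3 differences from untreated cells lay nearest to those of Dusp2 were found among 10115 measured at all times. Pom121, which encodes a nuclear pore protein, was at a Euclidean distance of 0.10 (0.80, -0.04 and -0.47 at 1, 4 and 6 h), Tonsl, a replication fork repair gene, at 0.23, and the claudin gene Cldn12 at 0.25. Nearest to Dusp6 were Samhd1, a nucleotide hydrolase gene (distance 0.06; -0.23, -0.61 and -0.35), Hibch, of valine breakdown (0.09), and Pinx1, a telomerase inhibitor gene (0.10). The phosphatase and SPRED genes described here, and symbols that are clone, accession or predicted gene numbers, were left out of the search. The 3 differences share the untreated array, and each gene is 1 value a time.

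**Figure D4:**
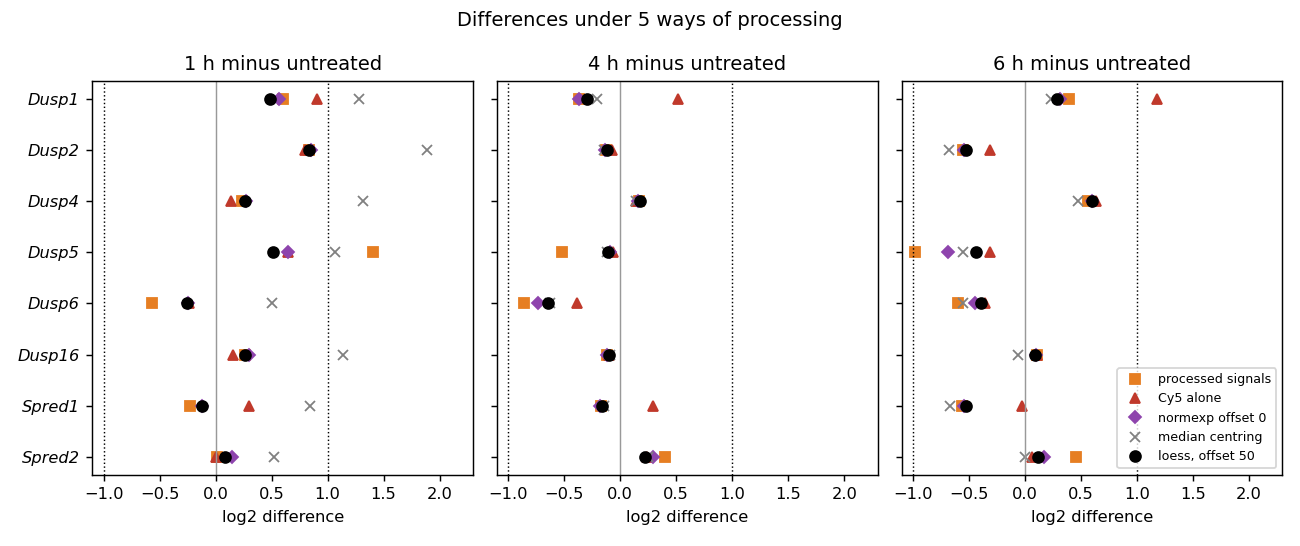
Difference of the log2 ratio from untreated cells at 1, 4 and 6 h for the 8 measured genes under 5 ways of processing (black circles for loess with an offset of 50, other symbols as in the legend); dotted lines are at -1 and 1. Dusp2 at 1 h stays near 0.8 except under median centring (1.89), while Dusp5 at 1 h lies between 0.51 and 1.40 and Dusp1 at 6 h reaches 1.18 in Cy5 alone.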

How the data were processed

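RNA of RAW 264.7 cells was measured on 4 Agilent 2-colour mouse arrays, 1 for each group. The submitters' processing notes name Agilent Feature Extraction 10.5.1.1; further steps are not given in the sources used here. Per the file headers, the deposited files hold intensity values (median brightness of spot and local background, and processed signals that the software had corrected and dye-normalized) and a log10 ratio with its error, and the deposited series table holds the same log10 ratio.

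Median intensities were corrected with normexp (offset 50) and normalized by loess within each array in limma 3.58.1 (R 4.3.3), with control and outlier spots at weight 0. Outlier spots (1.55% to 1.84%) were left out. For a difference, a probe had to pass the scanner's background flag in Cy5 and Cy3 of both arrays; measured probes of a gene were averaged. Accessions matched the GRCm38.p6 RefSeq table for 27655 of 39429 probes; the array is annotated on mm9, so no array coordinates are given. Cy5 alone means loess and then Aquantile normalization. Spot error came from 227 to 228 probes with 10 spots each against untreated cells, and from 232 to 234 among later arrays. The steps were tested on a copy of the untreated array with spot noise and known changes added. It held no difference in dye or array, so the test does not cover these. The 9 genes and all lists were chosen with earlier results of these data known. All pathway genes past the size of 1, or else the 2 largest of a list, and the 3 nearest genes to each of 2 members were named. There were 13 alternatives. Python 3.11.15 with pandas 2.3.3, numpy 2.4.6 and matplotlib 3.10.9 made tables and plots.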

Additional observations from a re-analysis of the deposited data

How the results depend on the processing

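Of 288 differences of the 8 genes from untreated cells under 12 alternatives, 229 moved by less than the spot SD and 59 by more. For a gene with 1 probe, keeping outlier spots, taking the brightest probe or loosening the background filter repeated the loess value. Those differences could not move, and the 229 includes them. Processed signals and deposited ratios gave nearly the same values but count as separate alternatives. No difference was past the size of 1 in the loess values, and the signs that changed are given below. The count of the 8 genes past that size at 1 h was 1 in processed signals and in the deposited ratios (Dusp5), 1 after scaling between arrays (Dusp2) and 5 under median centring (Dusp1, Dusp2, Dusp4, Dusp5 and Dusp16), which put the median of all genes at 0.86. At 6 h it was 1 in Cy5 alone (Dusp1). At 1.5-fold it was 1 at 1 h (Dusp2), 1 at 4 h (Dusp6) and 1 at 6 h (Dusp4). At 4 h against 1 h it was 1 without background subtraction, in processed signals and in the deposited ratios, 2 after scaling, 6 under median centring and 3 at 1.5-fold. At 6 h against 1 h it was 2 (Dusp2 and Dusp5) with an offset of 0, without background subtraction, in both scanner values, after scaling and at 1.5-fold, and 6 under median centring. Over all genes the counts at 4 h and at 6 h against 1 h, 44 and 91 in the loess values, were 3178 and 5013 under median centring, 80 and 197 with an offset of 0, 56 and 115 without background subtraction, 197 and 359 in processed signals, 197 and 358 in the deposited ratios, 96 and 158 after scaling and 224 and 523 at 1.5-fold. The cause was not tested. Over all genes the counts at 1, 4 and 6 h were 39, 47 and 95, and 53, 82 and 183 with an offset of 0, 59, 74 and 151 without background subtraction, 159, 243 and 424 in processed signals, 159, 244 and 424 in the deposited ratios, 3030, 53 and 151 under median centring (3030 higher and 0 lower at 1 h, 41 and 110 at 6 h), 378, 56 and 206 without normalization within arrays (17 higher and 361 lower at 1 h, 22 and 34 at 4 h, 32 and 174 at 6 h), 80, 69 and 118 after scaling, 109, 167 and 376 in Cy5 alone and 183, 284 and 558 at 1.5-fold. Plaur at 6 h was 0.24 in Cy5 alone. Signs that changed below the size of 1 were those of Dusp1 and Spred1 at 4 h in Cy5 alone, and at 1 h those of Dusp6 and Spred1 under median centring, of Spred1 in Cy5 alone, and of Dusp5, Dusp16 and Spred2 without normalization within arrays. At 6 h Dusp16 and Spred2 changed sign under median centring and without normalization within arrays. Against 1 h, the sign changed for Dusp1 at 6 h in Cy5 alone and without normalization within arrays, for Dusp6 at 6 h without background subtraction and after scaling, for Dusp4 at 4 h in Cy5 alone and at 6 h under median centring, for Spred1 at 4 h under 6 alternatives and for Spred2 at both times under median centring. No paired analysis was possible because each group has 1 array. Signal over background limits Dusp5, Spred2 and, entirely, Dusp10.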
